A study of Mus musculus with 2 samples.

Results

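Marker genes of cells other than T cells were read in lymphomas of L-DKO mice by RNA sequencing. The 9 genes were Hbb-bs, Hba-a1, Lyz2, Cd68, Itgam, Cxcr2, Fn1, Pecam1 and Epcam, chosen by symbol. All 9 were among the 8249 genes of the expression table. L-DKO is a mouse strain with high levels of E proteins, per the title of the series, which are transcription factors of early lymphocyte development, and the labels do not spell out its alleles. Each group was 1 library from 1 tumour, and both tumours were negative for the CD1d tetramer, a reagent that stains invariant natural killer T cells. One tumour, called the gut tumour here, lay in a Peyer's patch, a lymphoid follicle of the gut wall, in an L-DKO mouse aged 26 weeks. The other, the thymic tumour, lay in the thymus of an L-DKO mouse aged 30 weeks. Per the labels' protocols the RNA came from lysed tumour tissue. The source labels, however, name lymphoma cells, and the design text of the series describes lymphoma cells as sorted. The labels therefore do not settle how many other cells each sample held. No treatment is given for either mouse, and tumour site, mouse and age cannot be told apart.

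These genes report on blood, innate immune and supporting cells. Hbb-bs and Hba-a1 encode beta and alpha globin, the chains of haemoglobin, which red cells and their precursors make in very large amounts. Lyz2 (lysozyme), Cd68 (a lysosomal membrane protein of macrophages), Itgam (the CD11b integrin chain) and Cxcr2 (a chemokine receptor that guides neutrophils) are myeloid genes. Fn1 (fibronectin) is an extracellular matrix protein, Pecam1 (CD31) joins endothelial cells to each other and also occurs on platelets and leukocytes, and Epcam is an adhesion protein of epithelial cells. A thymus and a Peyer's patch both normally hold blood vessels, macrophages and epithelium around their lymphocytes.

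Values are given as FPKM, fragments scaled for the length of the transcript and the size of the library, a scale that allows levels to be compared between genes. Differences are in log2(FPKM + 1), gut tumour minus thymic tumour, so a negative difference means a higher value in the thymic tumour. With 1 library per site no difference has a replicate check, and no test or p-value is given. Sequencing depth is unknown, so no counting interval can be attached to a value. Over all genes the median level was 31.2 FPKM in the gut tumour and 32.6 in the thymic tumour. Mitochondrially encoded genes made up 64.3% and 72.4% of the summed FPKM. The highest of them was mt-Ts1, a short transfer RNA gene, at 816954 FPKM in the gut tumour and 1.65e+06 in the thymic tumour. Length scaling weighs heavily on short genes, so these percentages are not shares of reads or of RNA. Both libraries held T cell transcripts, and 20 of 21 listed genes of the T cell receptor and its signalling were measured, at a median level of 166 FPKM in the gut tumour and 61.9 in the thymic tumour. In RNA pooled from many cells, fewer cells of a type and less RNA per cell cannot be told apart.

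Of the 9 genes, 5 were higher in the thymic tumour by 4-fold or more, a difference of -2 or lower. These 5 were Hbb-bs, Cxcr2, Hba-a1, Fn1 and Lyz2. The other 4, Itgam, Cd68, Epcam and Pecam1, lay within 2-fold, and 0 of the 9 were higher in the gut tumour by 4-fold or more. Of the 8245 genes that reached 1 FPKM in either library, 12.0% were higher in the thymic tumour by 4-fold or more and 7.84% in the gut tumour, which is 19.9% in either direction, and 49.8% lay within 2-fold. The 9 genes were picked with results of these data known, so their count is a description. By any amount, 7 of the 9 were higher in the thymic tumour, against 48.6% of all genes. The median difference was -2.15 over the 9 genes and 0.05 over all genes. Nearest to a 4-fold difference were Lyz2 among the genes past it, at -2.15, and Pecam1 among those short of it, at 0.96 in the other direction.

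**Figure D1:**
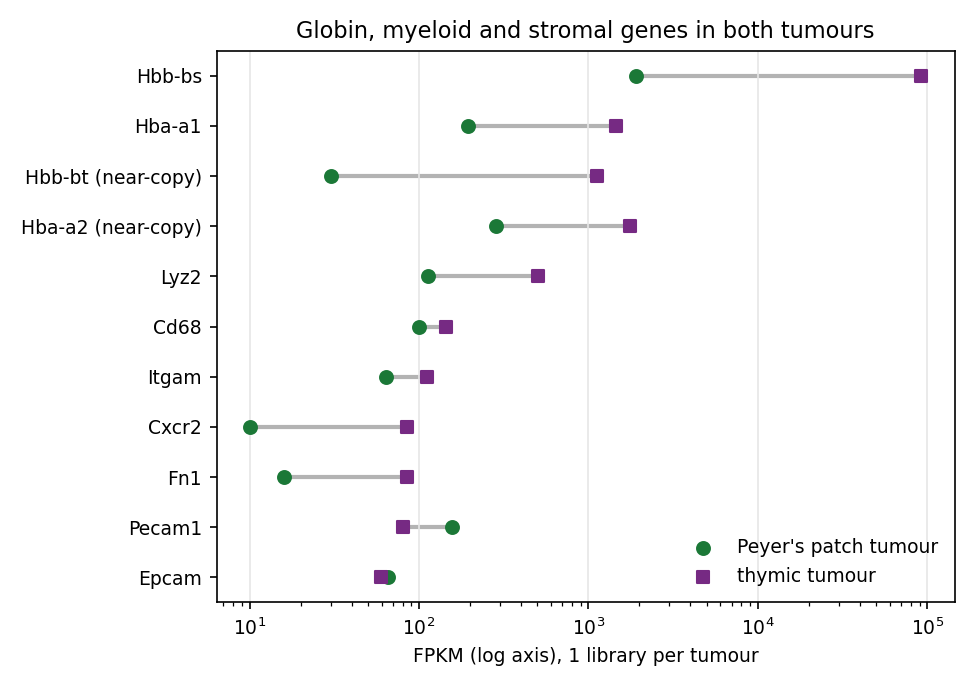
FPKM (log axis) of the 9 genes, and of the near-copies Hbb-bt and Hba-a2, in the gut tumour (circles) and the thymic tumour (squares), 1 library each and so without error bars. Hbb-bs spans the widest gap, from 1916 to 92068 FPKM, whereas the 2 points of Epcam, 65.1 and 59.6 FPKM, nearly coincide and Pecam1 runs the other way as deposited.

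The order of the 9 levels was similar at the top and different below. Hbb-bs ranked first and Hba-a1 second among them in both tumours. Pecam1 was number 3 of the 9 in the gut tumour and number 8 in the thymic tumour, and Epcam was number 6 and number 9. Cxcr2 was the lowest of the 9 in the gut tumour, at 10.1 FPKM, where it and Fn1 were below the median gene. All 9 genes were above the median gene in the thymic tumour. Leaving out the globins, the highest and the lowest level were 15.6-fold apart in the gut tumour and 8.46-fold in the thymic tumour. Without replicates it cannot be said which neighbours in these orders differ. Cxcr2 and Fn1 had almost the same value in the thymic tumour, 84.8 FPKM each.

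**Figure D2:**
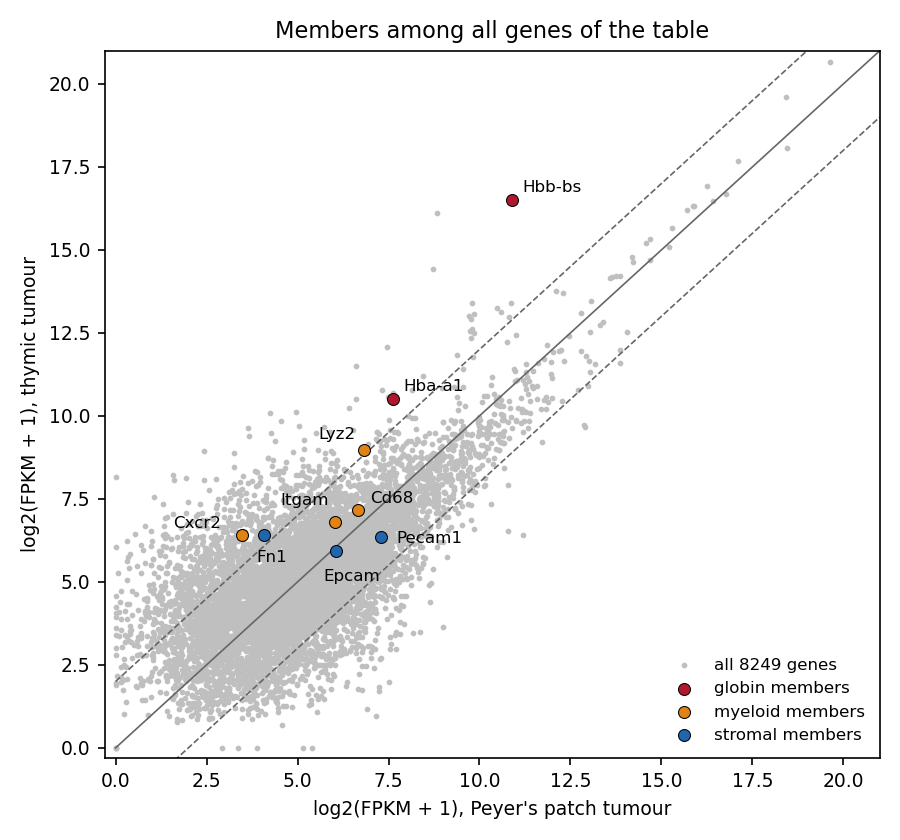
Level of every gene of the table in the gut tumour (x axis) and the thymic tumour (y axis), both in log2(FPKM + 1), with the 9 genes in colour by group. The solid line marks equal values and the dashed lines 4-fold differences. Hbb-bs lies far from the main cloud, at 10.9 and 16.5, and Cd68, Itgam, Epcam and Pecam1 lie between the dashed lines.

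Both globin genes were far higher in the thymic tumour. Hbb-bs was at 1916 FPKM in the gut tumour and 92068 in the thymic tumour, a ratio of 48.0 and a difference of -5.59. There it stood above all other nuclear genes of the table, with 6 mitochondrial genes above it, and it made up 6.72% of the summed FPKM of nuclear genes. In the gut tumour it still ranked 95 among all genes, at 0.157% of the nuclear sum. Hba-a1 was at 194 FPKM in the gut tumour and 1444 in the thymic tumour, with a ratio of 7.43 and a difference of -2.89. Its rank among all genes moved from 902 to 109. Hbb-bs and Hba-a1 were therefore well above the median gene in both tumours, and higher by a large factor in the thymic one.

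The other adult globin genes of the table moved in the same direction. Hbb-bt, the second adult beta globin gene, was at 30.3 FPKM in the gut tumour and 1121 in the thymic one, a difference of -5.16. Hba-a2, the second alpha globin gene, was at 283 and 1756 FPKM, a difference of -2.63. All 4 measured globin genes, of 9 listed, were thus higher in the thymic tumour by 4-fold or more. How the reads were divided within each pair is uncertain. In the GENCODE M21 transcripts, 65.8% of the 50-base windows of Hbb-bs also occur in Hbb-bt, and 67.5% of those of Hba-a1 also occur in Hba-a2. The sum of each pair is less open to that division but not free of it, because FPKM is scaled by length. The longest protein-coding forms have 628 bases for Hbb-bs and 703 for Hbb-bt, and 699 for Hba-a1 and 554 for Hba-a2. Beta globin summed to 1947 FPKM in the gut tumour and 93189 in the thymic tumour, a ratio of 47.9, and alpha globin to 478 and 3201, a ratio of 6.70.

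Beta and alpha globin did not differ by the same factor. Beta globin made up 80.3% of the summed globin FPKM in the gut tumour and 96.7% in the thymic tumour. The ratio of beta to alpha was 4.07 in the gut tumour and 29.1 in the thymic tumour, 7.15-fold apart, and it does not depend on how the libraries were scaled to each other. In contrast, the ratio of Hbb-bs to Hbb-bt was 63.2 and 82.1, and that of Hba-a2 to Hba-a1 was 1.46 and 1.22, both within 1.5-fold between tumours. Haemoglobin itself holds equal numbers of alpha and beta chains. Globin transcripts are short, with longest protein-coding forms of 628 bases for Hbb-bs and 699 for Hba-a1, and a length-scaled value of a short transcript is uncertain. The part of length scaling in the beta to alpha ratio was not tested.

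The promoters of the globin genes are shown because all 4 genes differed in the same direction in these tumours. Each line gives the 150 bases before the start site, from RefSeq, build GRCm38.p6, which is not the build named for the deposited values. Capitals mark matches to 3 short words, each searched on both strands. The word CACCC is the core of the box bound by erythroid KLF factors. The word CCAAT is the core of the box bound by the factor NF-Y. The word ATATAA covers the TATA box. The windows are chr7:103827929-103828078 for Hbb-bs and chr7:103813924-103814073 for Hbb-bt, both on the minus strand, and chr11:32283522-32283671 for Hba-a1 on the plus strand.
Hbb-bs: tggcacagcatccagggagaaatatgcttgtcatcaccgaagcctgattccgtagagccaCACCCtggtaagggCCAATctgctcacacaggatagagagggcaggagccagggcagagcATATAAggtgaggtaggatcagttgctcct
Hbb-bt: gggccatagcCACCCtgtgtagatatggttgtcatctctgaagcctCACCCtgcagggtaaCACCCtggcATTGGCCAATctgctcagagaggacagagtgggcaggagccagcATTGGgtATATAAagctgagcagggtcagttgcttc
Hba-a1: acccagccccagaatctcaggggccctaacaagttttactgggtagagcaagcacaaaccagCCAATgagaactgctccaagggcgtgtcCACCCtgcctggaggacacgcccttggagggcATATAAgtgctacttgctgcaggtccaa

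Counting back from the start site, the matches in Hbb-bs begin at base -90 (CACCC), -76 (CCAAT) and -30 (ATATAA). Those in Hba-a1 begin at -60, -88 and -28, so the CACCC and CCAAT matches stand in the opposite order. In Hbb-bt the word CCAAT also occurs on the opposite strand, written ATTGG, once directly beside a forward match, and 3 CACCC and 3 CCAAT matches were found. The window of Hba-a2 shares an unbroken run of 147 bases with that of Hba-a1, whereas the longest run shared by Hbb-bs and Hbb-bt is 14 bases. All 4 globin windows hold all 3 words. Of 32851 promoter windows of the same length, 37.4% hold CACCC, 24.5% CCAAT, 5.35% ATATAA and 0.423% all 3. Of the other 5 members with a window in the table, 4 hold CACCC, 1 holds CCAAT, 0 hold ATATAA and 0 hold all 3. The alpha globin windows are near-copies and so not separate cases. These matches describe sequence, are no test of enrichment, and say nothing on which factors were bound in the tumours. Fn1 and Pecam1 had no entry.

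Few other erythroid genes were measured, and 0 of these 3 were past 4-fold as deposited, against 19.9% of all genes in either direction. Of 29 listed erythroid genes other than globins, 3 were in the table and the other 26, among them Alas2 and Klf1, were not analysed here. Bpgm, which makes the red cell metabolite that lowers the oxygen affinity of haemoglobin, was at 17.6 FPKM in the gut tumour against 68.4 in the thymic one, a difference of -1.90. Tmod1, a cap of actin filaments in the red cell skeleton, was at 22.5 and 29.1 FPKM. Tfrc, the transferrin receptor of red cell precursors and of dividing cells at large, was at 247 and 115 FPKM, a difference of 1.09 in the other direction. The median of these 3 was -0.35, which became 0.17 with both libraries rescaled to the same total. With the authors' standard scores, multiplied back to a log2 scale, it was 0.19.

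Genes of haem synthesis did not all move one way. Of 11 listed enzymes and carriers 5 were measured, and 4 of these were higher in the thymic tumour. Cpox, coproporphyrinogen oxidase, was listed at 0.289 FPKM in the gut tumour against 41.9 in the thymic one, a difference of -5.06. Its gut value was below the filter of 1 FPKM and depth is unknown, so the size of this difference is uncertain. Urod, the decarboxylase before Cpox, was at 4.91 and 38.5 FPKM, and Fech, which inserts the iron, at 7.47 and 29.1. Alas1, the housekeeping form of the first enzyme, was at 25.2 and 45.4 FPKM. Haem synthesis runs in all cells, so these genes do not mark red cells alone.

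The 4 myeloid genes were all higher in the thymic tumour as deposited, by very different factors, and Cd68 alone changed direction, to 0.01, when both libraries were rescaled to the same total. Cxcr2 was at 10.1 FPKM in the gut tumour and 84.8 in the thymic tumour, a ratio of 8.43 and a difference of -2.96. Its rank among all genes went from 6405 to 1961. Lyz2 was at 113 and 504 FPKM, a ratio of 4.45 and a difference of -2.15, with ranks of 1585 and 295. Lyz2 has a neighbour copy, Lyz1, and 15.4% of its 50-base windows also occur there. Itgam was at 64.1 and 111 FPKM, a difference of -0.78. Cd68 was at 99.5 and 144 FPKM, a difference of -0.53. Cxcr2 and Lyz2 were thus past 4-fold as deposited, while Itgam and Cd68 differed by less than 2-fold.

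The wider macrophage and monocyte list followed the smaller differences. Of 36 listed genes 7 were measured, 6 of them higher in the thymic tumour and 1, Lyz2, by at least 4-fold, a share near the 12.0% of all genes past that line. Their median was -0.78, and it was -0.69 over the 4 that are not among the 9 genes. Ctss, the cathepsin S protease of antigen-presenting cells, was at 101 FPKM in the gut tumour and 230 in the thymic tumour. Tyrobp, the signalling adaptor DAP12 of myeloid and natural killer cells, was at 104 and 118 FPKM, and Cebpb, a transcription factor of myeloid cells, at 22.3 and 53.2. Ccr2, a chemokine receptor of monocytes and activated T cells, went the other way at 34.5 and 13.1 FPKM. The macrophage genes Adgre1, Csf1r and Mertk were not analysed here. Summed over the 7 genes the list stood at 538 FPKM in the gut tumour and 1173 in the thymic tumour, of which Lyz2 was the largest part.

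For neutrophils the evidence was a single gene. Cxcr2 was the 1 measured gene of 22 listed, and the granule and calprotectin genes Mpo, Elane, S100a8 and S100a9 were not analysed here. Of 12 listed dendritic cell genes 3 were measured. Irf8 was at 78.4 FPKM in the gut tumour and 85.6 in the thymic tumour, and Ccr7, a receptor for homing to lymph nodes that T cells also carry, at 11.1 and 35.0. Tcf4, an E protein gene prominent in plasmacytoid dendritic cells, was at 2.87 and 105 FPKM. Of 14 listed genes of mast cells, basophils and eosinophils 0 were measured.

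Itgam forms the receptor CR3 with the beta chain Itgb2, and the chains differed in opposite directions. Itgb2 was at 160 FPKM in the gut tumour against 77.7 in the thymic one, a difference of 1.03. Itgal, which pairs with the same beta chain in the lymphocyte integrin LFA-1, was at 69.3 and 49.0 FPKM. The ratio of Itgam to Itgb2 was 0.40 in the gut tumour and 1.43 in the thymic tumour, 3.57-fold apart, whereas that of Itgal to Itgb2 was 0.433 and 0.631. Ligands of Cxcr2 on the fixed list were not analysed here. The lysosomal membrane genes Lamp1 (29.4 and 78.7 FPKM) and Lamp2 (77.7 and 124), which all cells use, were higher in the thymic tumour.

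The stromal genes did not move together. Fn1 was at 16.0 FPKM in the gut tumour and 84.8 in the thymic tumour, a ratio of 5.29 and a difference of -2.33. Pecam1 was at 157 and 80.3 FPKM, 1.96-fold higher in the gut tumour, a difference of 0.96 that turned to -0.45 when the libraries were rescaled to T cell genes. Epcam was at 65.1 and 59.6 FPKM, a difference of 0.13. Its sign turned with scaling, to -0.56 when the libraries were rescaled to ribosomal protein genes and to -1.26 when rescaled to T cell genes. Of the 3, Fn1 alone was past 4-fold.

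The lists around each stromal gene held few measured members. Of 27 fibroblast and matrix genes 4 were measured, and the collagens and Pdgfra on the list were not analysed here. Beside Fn1, Vim, an intermediate filament gene also active in leukocytes, was at 102 FPKM in the gut tumour and 183 in the thymic tumour. Fbln1, a matrix glycoprotein, was at 10.4 and 2.14 FPKM, a difference of 1.86 opposite to that of Fn1. Thy1, a surface protein of both fibroblasts and T cells, was at 305 and 56.9 FPKM. The list split evenly, 2 genes higher in each tumour, with a median of 0.51 that turned to -0.15 with scaling to ribosomal protein genes and to -0.80 with scaling to T cell genes. Of 26 endothelial genes 2 were measured. Icam2, the second, was at 12 and 29.4 FPKM, a difference of -1.22 against 0.96 for Pecam1, and Cdh5 and Kdr were not analysed here.

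Epcam was the 1 measured gene of 24 listed for intestinal epithelium, and Krt8, Cdh1 and Vil1 were not analysed here. Thymic epithelium had 2 of 12 listed genes. Ccl25, a chemokine of thymic and small intestinal epithelium, was at 39.1 FPKM in the gut tumour and 19.8 in the thymic tumour, and Ctsl, the protease cathepsin L, at 89.4 and 56.4. As deposited, both were therefore lower in the tumour from the thymus, by less than 2-fold. Their values under the other scalings were not computed. The factor for T cell genes, 0.373 on the gut library, is small enough to turn both directions. Epcam and Ccl25 occur in the epithelium of both organs, so they do not separate the sites. From the platelet list 1 of 10 genes was measured, the integrin chain Itgb3, at 27.6 and 4.19 FPKM.

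Receptor chains for fibronectin were also apart. Itgb1, the beta chain of most fibronectin receptors, was at 9.25 FPKM in the gut tumour against 57.5 in the thymic one, a difference of -2.51 in the direction of Fn1. Itga4, which pairs with it in the leukocyte receptor VLA-4, was at 118 and 47.8 FPKM. The ratio of Itga4 to Itgb1 was 12.8 and 0.831. Of the phosphatases that bind the cytoplasmic tail of Pecam1, Ptpn6 was at 315 and 214 FPKM and Ptpn11 at 16.0 and 34.

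**Figure D3:**
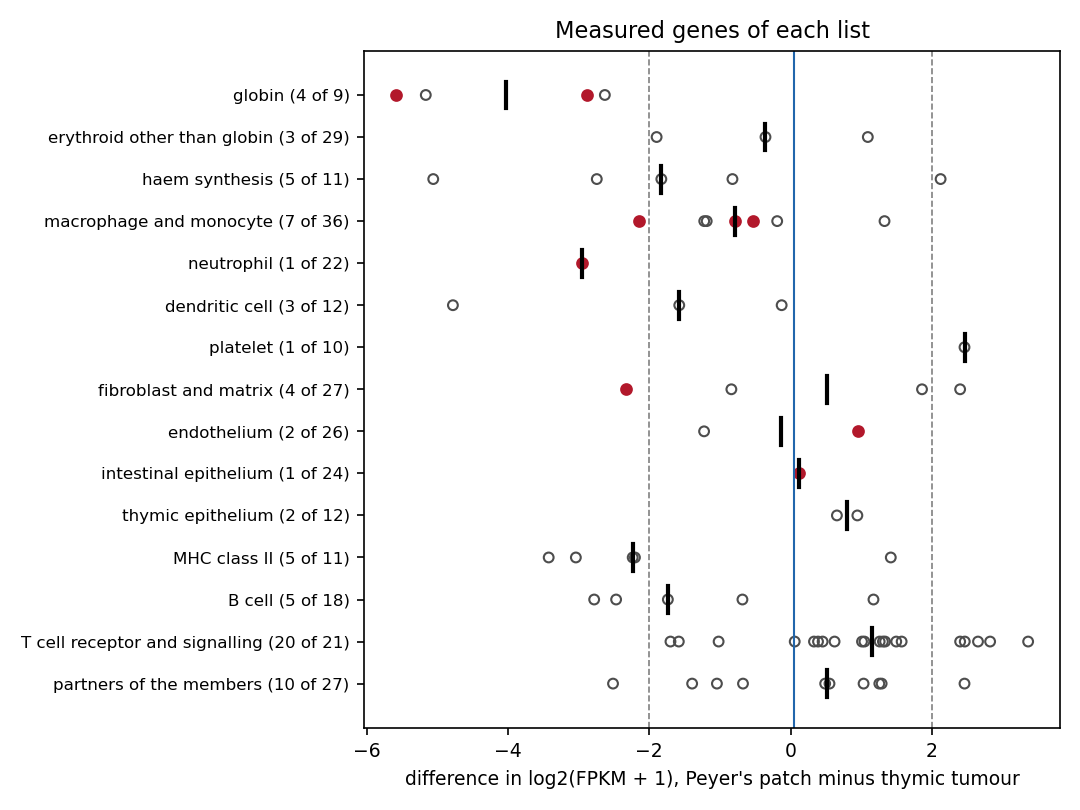
Difference in log2(FPKM + 1), gut minus thymic tumour, of each measured gene of each list, with the numbers measured and listed in brackets. Filled points are the 9 genes, open points other genes, black bars list medians, the solid vertical line the median of all genes and dashed lines 4-fold differences. All 4 globin genes lie left of -2, and 17 of 20 T cell genes lie right of 0 as deposited.

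Beside the 9 genes, lists of lymphoid and antigen-presenting cells were apart in these libraries. MHC class II genes, 5 of 11 measured, had a median difference of -2.23, with 4 higher in the thymic tumour by 4-fold or more. The remaining gene, H2-Ob, went the other way, at 49.1 FPKM in the gut tumour and 17.8 in the thymic one, a difference of 1.42. B cell genes, 5 of 18 measured, had a median of -1.74, with 4 higher in the thymic tumour and 2 of those by at least 4-fold. T cell receptor and signalling genes had a median of 1.15, or -0.25 when the libraries were rescaled to these genes themselves, with 17 of 20 higher in the gut tumour as deposited and 5 of those by at least 4-fold. Over all genes the median was 0.05, with 12.0% past 4-fold towards the thymic tumour and 7.84% towards the gut tumour. Summed FPKM of the MHC class II list was 336 in the gut tumour and 1874 in the thymic one. The sums were 1831 and 10860 for the B cell list, and 5792 and 3242 for the T cell list. Most of the B cell sums came from 1 immunoglobulin gene, Igkc, at 1428 and 9811 FPKM. Cd72 was the 1 gene of that list higher in the gut tumour, at 122 and 53.5 FPKM. The part of B cells, or of a lower share of T cell RNA, in the differences of the 9 genes was not tested.

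Set against the T cell genes of the same library, all 9 genes were higher in the thymic tumour. The level of each gene was divided by the median FPKM of the T cell list, which removes the scaling between libraries but adds whatever separates the T cell genes of these tumours. Hbb-bs was at 11.6 times that median in the gut tumour and 1487 times in the thymic tumour. Cxcr2 was at 0.0606 and 1.37, Fn1 at 0.0966 and 1.37, and Lyz2 at 0.681 and 8.13. Itgam and Cd68, which were within 2-fold as deposited, were at 0.386 and 1.80 and at 0.60 and 2.32, 4.65-fold and 3.87-fold apart. Epcam was at 0.392 and 0.962, and Pecam1, the least apart, at 0.948 and 1.30.

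**Figure D4:**
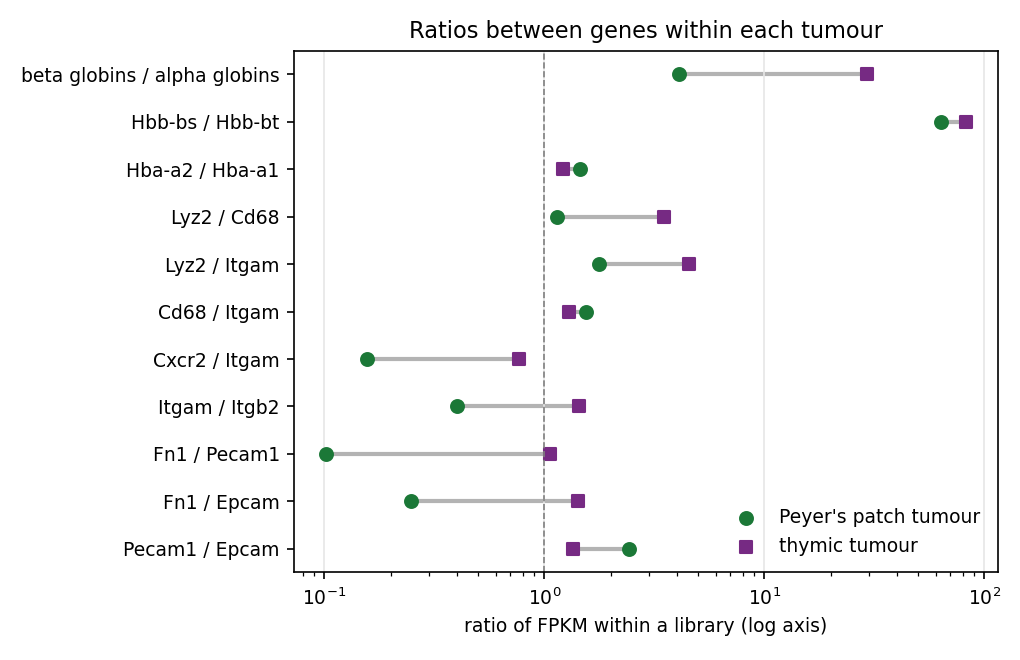
Ratio of the FPKM of gene pairs within the gut tumour (circles) and within the thymic tumour (squares), on a log axis, with the dashed line at equal levels and 1 library each. The beta to alpha globin ratio runs from 4.07 to 29.1 and Fn1 to Pecam1 from 0.102 to 1.06, whereas Cd68 to Itgam stays near 1.55 and 1.29.

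Ratios among the 9 genes, which need no scaling between libraries, also varied. Cd68 and Itgam kept nearly the same ratio, 1.55 in the gut tumour and 1.29 in the thymic tumour. Lyz2 was level with Cd68 in the gut tumour, with a ratio of 1.14, and 3.51 times as high in the thymic tumour. The ratio of Cxcr2 to Itgam was 0.157 and 0.763, 4.86-fold apart. The ratio of Fn1 to Pecam1 was 0.102 and 1.06, 10.4-fold apart, and that of Hbb-bs to Lyz2 was 17 and 183, 10.8-fold apart.

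Which of the 9 genes were past 4-fold depended in part on scaling. As deposited and under 9 other scalings and pseudocounts, Hbb-bs ran from -7.01 to -5.04, Cxcr2 from -4.17 to -2.46 and Hba-a1 from -4.30 to -2.35, so these 3 stayed past 4-fold. Lyz2 ran from -3.55 to -1.61 and Fn1 from -3.62 to -1.82, and each was past 4-fold in 8 of the 10 settings. Itgam passed 4-fold in 1 setting, at -2.17 with rescaling to T cell genes. Cd68 ran from -1.92 to 0.01, Pecam1 from -0.45 to 1.5 and Epcam from -1.26 to 0.66, and these 3 changed sign. The scalings moved the median of all genes from 0.05 as deposited to between -1.27, with T cell genes, and 0.57, with the same total. Rescaling to the same total multiplied the gut library by 1.46, against 1.12 when mitochondrial genes were left out of the total. Without mitochondrial genes Cd68 was at -0.36, Lyz2 at -1.98 and Fn1 at -2.17.

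**Figure D5:**
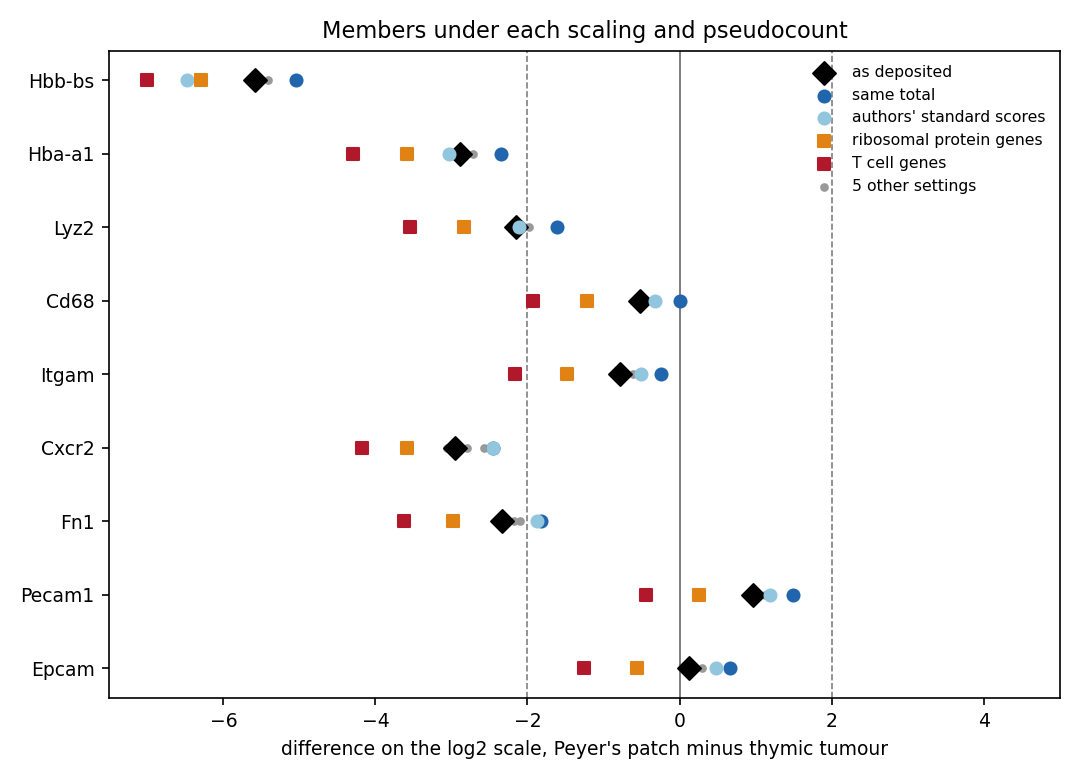
Difference of each of the 9 genes on the log2 scale, gut minus thymic tumour, as deposited (diamonds) and under 9 other scalings and pseudocounts (other symbols), with dashed lines at 4-fold. Hbb-bs, Hba-a1 and Cxcr2 stay left of -2 in each setting, and Cd68, Pecam1 and Epcam cross 0.

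For each gene the most similar named gene was sought by the distance between pairs of log2(FPKM + 1) values, which rests on 2 libraries only. Hbb-bs had no close match. Its nearest gene was Hnrnpll, a splicing regulator of T cells, at 418 FPKM in the gut tumour and 22027 in the thymic tumour, a distance of 3.01. Hba-a1 was nearest to Nfia (195 and 1656 FPKM), Lyz2 to Cep57 (114 and 491) and Cxcr2 to Csrnp2 (9.77 and 78.8). Fn1 was nearest to Ube2w and Cd68 to Lpl, while Itgam, Pecam1 and Epcam were nearest to Hypk, Ppil1 and Cops6. The numbers of genes within a distance of 0.25 were 0 for Hbb-bs, 1 for Hba-a1, 2 for Lyz2 and 4 for Cxcr2, against 29 for Fn1, 31 for Cd68, 53 for Itgam, 55 for Pecam1 and 91 for Epcam. The levels of the last 5 genes were thus common ones in these tumours, and those of the globins were rare.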

How the data were processed

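RNA was measured in 2 libraries, 1 per tumour. Per the labels' protocols, stranded poly(A) libraries were made from total RNA. The submitters' processing notes name mm9 and the tools GATK, Picard, TopHat and Cufflinks. The annotation, tool versions and criteria for entering a gene were not given in the sources used here. The authors deposited values headed FPKM, which were read as log2(FPKM + 1), a base and an added 1 inferred from the values (maximum 20.7), and a standard score, which is linear in the log2 value of the same library (residuals at most 1.2e-08). All 8249 genes have values above 0 in both libraries, so a gene at 0 in either is outside the comparison. Depth is unknown.

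FPKM was recomputed on the linear scale with Python 3.11.15, numpy 2.4.6 and pandas 2.3.3. Genes had to reach 1 FPKM in either library, and 4 did not. A difference of 2 or more in size was counted as 4-fold. The 9 genes, the 16 lists and the rule for named genes were chosen with earlier results of these data known. The rule took the 9 genes, measured genes of the lists of other cell types and of the members' partners, and the nearest gene to each. Not every gene of these lists is reported here. The counting was tested on simulated data. Alternatives were 13 settings of pseudocount, filter, threshold and scaling. For the setting of the authors' standard scores, the difference between scores was brought to an approximate log2 scale. It was multiplied by the mean of the standard deviations behind the scores, 2.84 for the Peyer's patch library and 2.43 for the thymic one. Rescaling multiplied the Peyer's patch library by 1 factor, set by the median ratio, upper quartile, total (with or without mitochondrial genes), 78 ribosomal protein genes or the T cell list. Promoters came from RefSeq (GRCm38.p6) and transcripts from GENCODE M21, matched by symbol, for 7 and 9 of the 9 genes.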

Additional observations from a re-analysis of the deposited data

How the results depend on the processing

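No paired analysis was possible because each site has 1 library and no test was made. Of the 9 genes, 5 were higher in the thymic tumour by 4-fold or more. That count was 1 at an 8-fold threshold, which Hbb-bs alone passed, and 3 with libraries rescaled to the same total. Over all genes the count of 991 became 651 with a pseudocount of 5, 2103 at a 2-fold and 418 at an 8-fold threshold, 655 with the same total, 624 with the authors' standard scores, 1596 with scaling to ribosomal protein genes and 2523 with scaling to T cell genes. Of the genes past 4-fold, 60.5% were higher in the thymic tumour as deposited, 35.0% with the same total, 33.9% with the standard scores, 85.3% with ribosomal protein genes and 96.4% with T cell genes. The number of the 9 genes higher in the thymic tumour ran from 6 to 9, and the number of the 10 lists with at least 3 measured genes whose median was below 0 ran from 6 to 10, with 7 of each as deposited. Among the 9 genes and these list medians, no difference past 4-fold as deposited changed sign. All of these were towards the thymic tumour, and no rescaling raised the gut library by a factor above 1.46. The rescalings therefore could not have turned them, and their constant sign is no check. Other genes were not checked for a change of sign. The causes were not tested, beyond the shift of the median of all genes that each scaling makes. Leaving out a replicate was not possible, and unknown depth limits values near 1 FPKM more than those of the 9 genes, the lowest of which was 10.1 FPKM.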
